A study of Homo sapiens with 6 samples.

Results

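A set of 47 genes of DNA replication and of the step from G1 into S phase was followed in DU-145 prostate cancer cells carrying an inducible hairpin against MUC1. The set was chosen by gene symbol, and all 47 symbols matched 1 row each of a deposited table of 60662 genes. The DOX-positive group is DU-145 cells with a stably expressed, tetracycline-controlled MUC1 hairpin, given doxycycline (DOX) for 7 days, and has 3 libraries. The DOX-negative group is the same hairpin line given vehicle for 7 days, and also has 3 libraries. Both groups also received 10 ng/ml of interferon-gamma (IFN-gamma) over 24 hours, so the comparison is between DOX and vehicle in IFN-gamma-treated cells. Unstimulated cells, and cells with a control hairpin and DOX, were not analysed here, so effects of DOX and of the hairpin cannot be told apart. The labels name triplicate cultures and give no separate days, passages or clones, so a p-value covers the spread among these cultures alone, which may be technical.

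Before a cell copies its DNA, CDC6 and CDT1 load the MCM2 to MCM7 helicase ring onto origins in G1. CDC45 and the GINS complex then join the ring and switch it on, and polymerases, the sliding clamp PCNA and its loader RFC follow. Cyclin D with CDK4 or CDK6, and cyclin E with CDK2, drive this step by phosphorylating the retinoblastoma protein, which otherwise holds back the E2F factors that transcribe many of these genes. DU-145 cells are known for lacking a functional retinoblastoma protein.

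Total counts ran from 87739734 to 150921436 reads, and the 47 genes had between 247 and 137677 reads per gene and library. MUC1, the gene the hairpin targets (chromosome 1, 155185824 to 155192916, minus strand, GRCh38), read 1.53, 1.31 and 1.32 CPM (the standard depth-scaled count, here with TMM-scaled library totals unless stated) in DOX-positive cells against 20.4, 21.8 and 22.2 CPM in DOX-negative cells. The epithelial markers KRT8, KRT18, KRT19, EPCAM and CDH1 were expressed and summed to between 2261 and 2350.4 CPM in DOX-positive cells against 813 to 864 CPM in DOX-negative cells. The prostate marker KLK3 was at 0 in all 6 libraries. The 8 leukocyte markers summed to between 0.388 and 0.505 CPM in DOX-positive cells against 1.27 to 1.37 CPM in DOX-negative cells, with CD3E and MS4A1 at 0. The 9 stromal and endothelial markers summed to between 5.09 and 5.41 CPM against 6.65 to 7.71 CPM, most of it COL1A1. Mitochondrial transcripts took between 5.49% and 6.21% of reads in DOX-positive cells and between 4.35% and 5.67% in DOX-negative cells. The part of these differences in the results was not tested.

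Most of the 47 genes moved little, and the direction of many depended on how libraries were scaled. TMM scaling, which allows for a changed composition of the RNA, gave 26 genes higher, 7 lower and 14 not called in DOX-positive cells (edgeR quasi-likelihood test, adjusted p under 0.05 over 24695 genes). Scaling by library size alone gave 14 higher, 16 lower and 17 not called. The median log2 fold change of the set was 0.11 with TMM and -0.03 with library size, against medians of -0.04 and -0.19 over all tested genes. The choice of scaling shifted the median of all genes by -0.14 on the log2 scale, so changes of that size are relative to the scaling. Relative to the median of all genes, the set's median lay 0.15 higher under both scalings.

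Over all tested genes, TMM called 56.5% of genes, 27.6% higher and 28.9% lower, and library size called 57.8%, 19.0% higher and 38.8% lower. The set holds well-expressed genes, which are called more often. Among the 12437 tested genes with a mean CPM at or above that of the lowest member, TMM called 76.9%, 45.5% higher and 31.4% lower. In the set these shares were 70.2%, 55.3% and 14.9%. Under library size the genes at or above the lowest member gave 30.8% higher and 45.0% lower, and the set gave 29.8% and 34.0%. The set's median exceeded the median of those genes by 0.04 on the log2 scale under both scalings. The share called in either direction lay below that background under both scalings (70.2% against 76.9% with TMM, and 63.8% against 75.8% with library size), and is not a result about the set as a whole.

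The genes differed from each other more than the set differed from the background. In all, 14 genes rose under both scalings: CCND1, CCND3, CCNE1, CDK4, CDK6, CDKN2B, E2F1, CDC6, GINS1, GINS2, RFC2, PRIM1, RRM1 and FEN1. All 14 kept the TMM call in each of 14 alternatives to the TMM fit, which include library size. With library size as the base fit, leaving out each library in turn gave 12 to 14 members higher. A further 7 fell under both scalings: MCM10, GINS4, POLA1, POLE2, TYMS, LIG1 and CHAF1B. Of these, GINS4, LIG1 and POLA1 kept the TMM call in each of the same 14 alternatives to the TMM fit. The other 4 fell by at most 0.16 on the log2 scale with TMM, and the count of 7 was 3 without DOX-positive replicate 1, 4 without DOX-positive replicate 2 and 4 without DOX-negative replicate 1. The 21 genes called alike under both scalings are 44.7% of the set, against 47.9% of all tested genes. No member was called in opposite directions under the 2 scalings, against 0.0121% of all tested genes. The 3 DOX-positive libraries lay clear of the 3 DOX-negative ones for 36 members with TMM and 32 with library size. Over all tested genes 62.4% and 63.7% did so, and at or above the lowest member 79.6% and 79.0%. In what follows, rose and fell stand without a scaling only where both gave the call.

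A change over 1.5-fold was called with TMM for 3 of the 47 genes, CDK6, CCNE1 and CCND1, all higher. Over all tested genes 24.9% changed by that much in either direction, 8.70% higher and 16.2% lower. Among the 12437 tested genes at or above the lowest member, 1181 were called higher by that much and 1143 lower. In 38 of the 47 genes the TMM estimate lay within 1.25-fold either way. CDK6, CCNE1 and CCND1 lie furthest to the right in the plot of log2 fold changes by role. The values of CCNE2 and CDK4 lie within the range of the replication genes, below those of GINS2 and RRM1. The roles were not tested against each other.

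**Figure D1:**
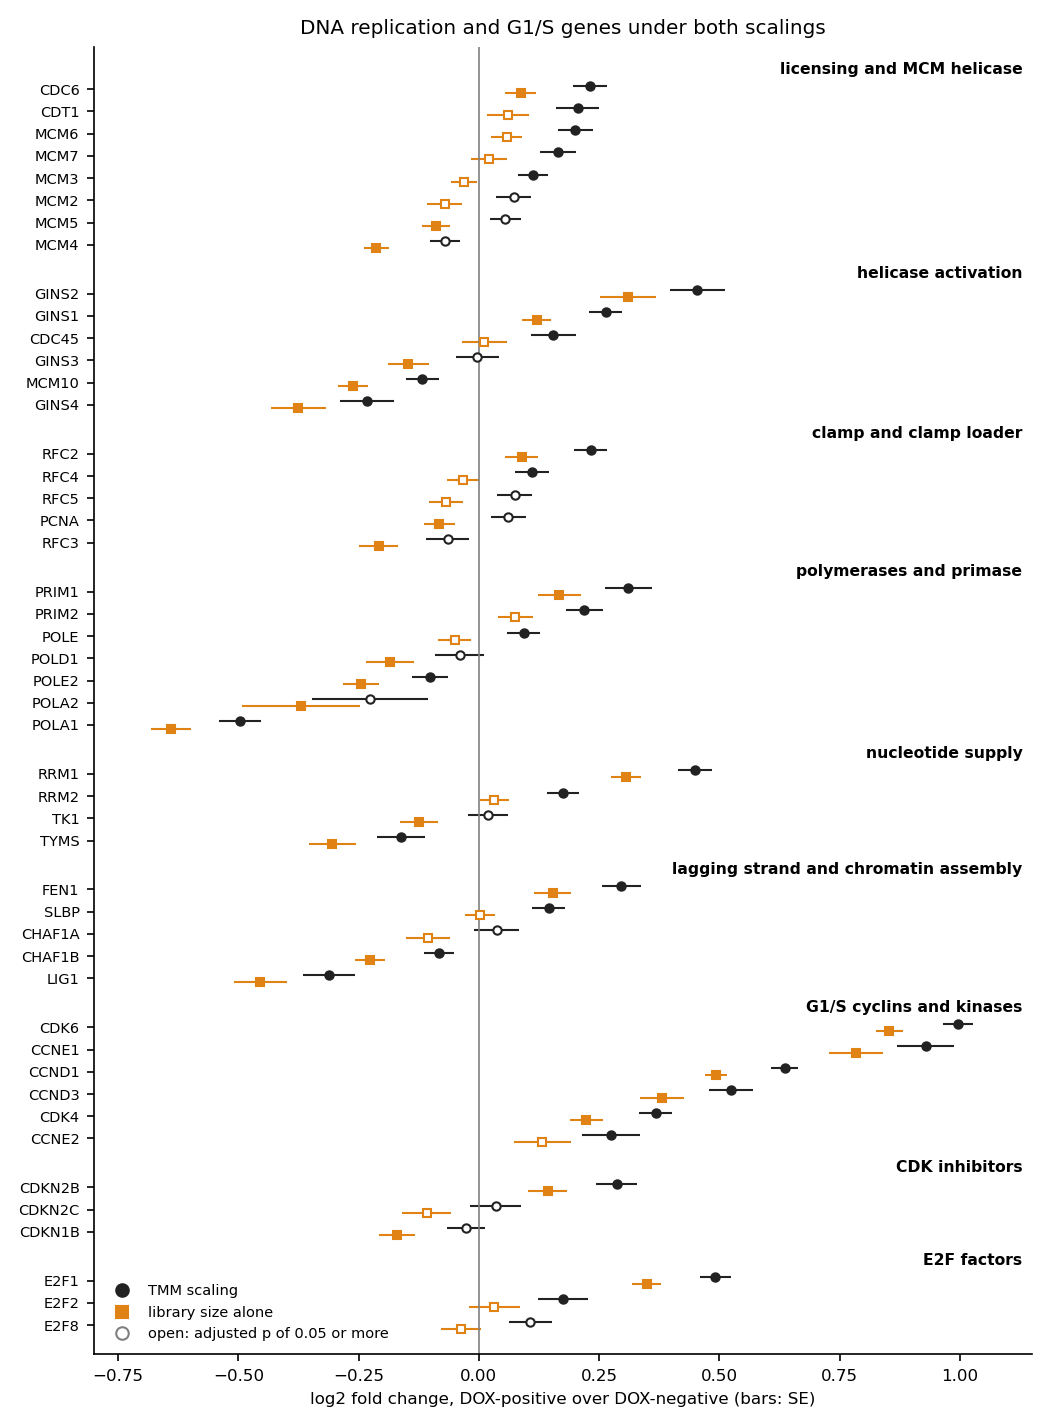
Log2 fold change of each of the 47 genes (x axis, DOX-positive over DOX-negative, bars are standard errors), grouped by role, with TMM scaling as black circles and library size alone as orange squares. Filled symbols passed an adjusted p of 0.05, and the orange symbols lie to the left of the black ones by about the same amount for every gene.

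The G1 cyclins and their kinases were the one role whose members were all higher with TMM, and 5 of 6 rose under both scalings. Among genes at or above the lowest member, 45.5% were higher with TMM and 30.8% with library size. CDK6, a kinase partner of D-type cyclins (chromosome 7, 92604921 to 92836594, minus strand, GRCh38), read 85.0, 84.6 and 84.6 CPM in DOX-positive cells against 41.8, 42.2 and 43.5 CPM in DOX-negative cells. All 3 DOX-positive libraries lay well above all 3 DOX-negative libraries, for a 1.99-fold rise (log2 fold change 0.996, SE 0.03, edgeR adjusted p = 9.09e-14), or 1.81-fold with library size. CDK4, the other kinase partner of D-type cyclins, rose by less. It averaged 48.6 ± 0.559 CPM in DOX-positive cells against 37.7 ± 1.19 CPM in DOX-negative cells (SD, n = 3 each, log2 fold change 0.37, SE 0.03).

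CCNE1, which encodes cyclin E1 (chromosome 19, 29811898 to 29824308, plus strand, GRCh38), read 17.6, 16.6 and 19.1 CPM in DOX-positive cells against 9.31, 9.32 and 9.35 CPM in DOX-negative cells. The DOX-negative libraries were almost identical and lay below every DOX-positive library (log2 fold change 0.93, SE 0.06, edgeR adjusted p = 7.7e-10, and 0.78 with library size). CCNE2, the second E-type cyclin, read 13.1, 11.8 and 13.2 CPM against 10.8, 10.1 and 10.5 CPM. Its call was made with TMM (0.28, edgeR adjusted p = 0.00096) and lost with library size (0.13, edgeR adjusted p = 0.0703), the only alternative that did not keep it.

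CCND1, which encodes cyclin D1 (chromosome 11, 69641087 to 69654474, plus strand, GRCh38), was by far the most abundant transcript of the set. It read 969.6, 953 and 980.2 CPM in DOX-positive cells against 636, 600.1 and 632 CPM in DOX-negative cells, and rose 1.55-fold with TMM (log2 fold change 0.64, SE 0.03, edgeR adjusted p = 1.02e-11) and 1.41-fold with library size. This gene alone took 27.0%, 26.5% and 26.7% of the reads of all 47 genes in DOX-positive cells, against 20.7%, 20.2% and 20.8% in DOX-negative cells. The 47 genes together took between 0.343% and 0.345% of all reads in DOX-positive cells and between 0.314% and 0.323% in DOX-negative cells. Without CCND1 the shares were 0.250% to 0.253% in DOX-positive cells and 0.251% to 0.256% in DOX-negative cells, so as shares of all reads the other 46 genes overlapped between groups. With TMM scaling the same sums did not overlap, at 2619, 2639 and 2688 CPM in DOX-positive cells against 2439, 2374 and 2409 CPM in DOX-negative cells. CCND3, which encodes cyclin D3, rose to 23.3 ± 0.295 CPM in DOX-positive cells against 16.2 ± 0.68 CPM in DOX-negative cells (log2 fold change 0.52, SE 0.05).

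The CDK inhibitors among the 47 genes did not move with the cyclins as a group. CDKN2B, which encodes the CDK4 and CDK6 inhibitor p15, read 26.1, 27.3 and 25.8 CPM in DOX-positive cells against 21.4, 21.1 and 22.5 CPM in DOX-negative cells, with no overlap (log2 fold change 0.29, SE 0.04, edgeR adjusted p = 1.85e-05). CDKN2C, which encodes p18 of the same family, read 21.3, 22.9 and 23.6 CPM against 23.0, 20.4 and 23.1 CPM. Its groups overlapped, and it was not called under either scaling or in any alternative (log2 fold change 0.04, SE 0.05). CDKN1B, which encodes p27, averaged 54.9 ± 1.99 CPM in DOX-positive cells and 56.0 ± 2.98 CPM in DOX-negative cells, with a log2 fold change of -0.03 with TMM and a call of -0.17 with library size.

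E2F1, an activating E2F factor (chromosome 20, 33675683 to 33686404, minus strand, GRCh38), read 48.3, 48.1 and 48.8 CPM in DOX-positive cells against 34.6, 34.0 and 34.7 CPM in DOX-negative cells. The 2 sets of libraries were tight and far apart (1.41-fold, log2 fold change 0.49, SE 0.03, edgeR adjusted p = 1.11e-09, and 0.35 with library size). E2F2, another activating member, read 18.3, 18.8 and 18.2 CPM against 17.6, 15.9 and 15.5 CPM. It was called with TMM (0.18, edgeR adjusted p = 0.00889) and not with library size (0.03, edgeR adjusted p = 0.624). Upper-quartile scaling also lost the call of E2F2. E2F8, a repressive member that E2F factors themselves induce, was not called under either scaling (0.11 with TMM, edgeR adjusted p = 0.052, and -0.04 with library size). It was called higher in 5 of 14 alternatives: with DESeq2 size factors, with no filter, and without DOX-positive replicate 1, DOX-negative replicate 1 or DOX-negative replicate 3 (adjusted p from 0.0208 to 0.477 over all 14, edgeR except for the DESeq2 and limma-voom tests).

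Promoter sequences help to show what these genes share apart from their function. The RefSeq table (GRCh38.p14) held promoters of 300 bases, from 250 before to 50 after each start, for 41 of the 47 genes; those of CCND1, CCNE2, E2F8, GINS4, MCM4 and MCM5 were not read. An E2F element was searched as TTTCCCGC, TTTCGCGC, TTTGCCGC or TTTGGCGC on both strands, with matches allowed to overlap. It was found for 19 of 41 genes, 46.3%, against 1090 of 27305 genes of all types with a promoter in the table, 3.99%, or 3.31% of all 35116 promoters. A CCAAT box, searched as CCAAT on both strands, was found for 51.2% of the set against 39.7% of all genes. The cell cycle homology element of mitotic genes, searched as TTTGAA or TTCGAA on both strands, was found for 4.88% against 19.5%. Promoters of all gene types differ in base composition, and a match is not evidence of binding.

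The windows below run from 160 bases before the RefSeq start to the base before it, on the gene's own strand, 5′ to 3′, with E2F matches in capitals. They are shown because E2F1 and GINS2 rose, POLA1 and LIG1 fell, and MCM6 holds the element 4 times. E2F1 is at chr20:33686386-33686545 on the minus strand, GINS2 at chr16:85688955-85689114 on the minus strand, MCM6 at chr2:135876444-135876603 on the minus strand, POLA1 at chrX:24693758-24693917 on the plus strand and LIG1 at chr19:48170345-48170504 on the minus strand.
E2F1: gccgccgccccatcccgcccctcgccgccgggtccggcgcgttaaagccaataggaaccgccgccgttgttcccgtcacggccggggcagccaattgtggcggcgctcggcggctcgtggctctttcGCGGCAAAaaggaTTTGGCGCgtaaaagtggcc
GINS2: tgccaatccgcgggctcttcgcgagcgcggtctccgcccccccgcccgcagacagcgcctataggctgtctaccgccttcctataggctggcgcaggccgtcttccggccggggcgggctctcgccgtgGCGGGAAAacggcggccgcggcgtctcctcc
MCM6: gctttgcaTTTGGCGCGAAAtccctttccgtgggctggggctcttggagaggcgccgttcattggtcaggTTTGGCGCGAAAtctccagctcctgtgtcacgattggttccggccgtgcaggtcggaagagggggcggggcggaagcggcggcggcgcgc
POLA1: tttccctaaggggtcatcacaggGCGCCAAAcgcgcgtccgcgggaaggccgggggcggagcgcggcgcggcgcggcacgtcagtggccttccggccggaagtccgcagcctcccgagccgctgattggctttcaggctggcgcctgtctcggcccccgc
LIG1: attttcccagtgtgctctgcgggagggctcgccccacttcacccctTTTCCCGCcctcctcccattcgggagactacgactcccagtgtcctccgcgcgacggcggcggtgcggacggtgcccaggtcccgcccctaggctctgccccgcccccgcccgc

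In MCM6 each capital run is a TTTGGCGC that overlaps a TTTCGCGC read on the other strand, and the run occurs at 2 places. In E2F1 the pair lies close to the start, while in POLA1 and LIG1 the element lies further upstream. Among genes not printed, TYMS, which fell, had a match at position -39 from the start. MCM3, higher with TMM, had one at -174. A relation of position to direction was not tested. Genes with and without the element were called in both directions. Of the 19 with a match, 10 were higher, 4 lower and 5 not called with TMM, with a median log2 fold change of 0.09. Of the 22 without one, 14 were higher, 2 lower and 6 not called, with a median of 0.17. These counts are a description, and the difference was not tested.

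Origin licensing genes were higher with TMM in 5 of 8 cases, and CDC6 alone kept the call with library size. These are 62.5% and 12.5% of the role, against 45.5% and 30.8% of genes at or above the lowest member, and were not tested. CDC6, an ATPase that loads the MCM ring, read 61.7, 64.3 and 67.3 CPM in DOX-positive cells against 53.6, 55.4 and 55.7 CPM in DOX-negative cells, with no overlap (log2 fold change 0.23, SE 0.04, edgeR adjusted p = 3.19e-05, and 0.09 with library size, edgeR adjusted p = 0.0309). CDT1, its partner in loading, read 46.3, 49.8 and 51.6 CPM against 44.4, 43.4 and 40.2 CPM. The groups of CDT1 were apart with TMM (log2 fold change 0.21, SE 0.04) and overlapped with library size (0.06).

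The 6 subunits of the MCM ring went different ways within a narrow range. With TMM, MCM6 (0.20), MCM7 (0.16) and MCM3 (0.11) were higher, while MCM2 (0.07), MCM5 (0.05) and MCM4 (-0.07) were not called. With library size, MCM4 (-0.21) and MCM5 (-0.09) were lower and the other 4 were not called. MCM4 was also called lower with upper-quartile scaling, with at least 1 CPM in 3 libraries, by the DESeq2 Wald test, by limma-voom and without DOX-negative replicate 2. MCM2 was called higher without DOX-negative replicate 1. With upper-quartile scaling the call of MCM3 was lost. MCM3 shows how much the scaling matters at this size. Its TMM-scaled values were 184, 183 and 187 CPM in DOX-positive cells against 172, 169 and 171 CPM in DOX-negative cells. Scaled by library size they were 176, 175 and 176 CPM against 181, 179 and 178 CPM. The groups did not overlap either way, with the DOX-positive libraries above under one scaling and below under the other.

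Levels per length put the ring's transcripts in the same order in both groups. On the scale of CPM per kilobase of deposited gene length (TMM-scaled), MCM3 stood at 50.6 ± 0.58 in DOX-positive cells against 46.8 ± 0.351 in DOX-negative cells (SD, n = 3 each). MCM4 followed at 38.5 ± 0.648 against 40.5 ± 0.736, and MCM6 at 31.4 ± 0.354 against 27.3 ± 1.18. MCM7 stood at 24.8 ± 0.292 against 22.1 ± 1.155, MCM5 at 14.3 ± 0.219 against 13.7 ± 0.273, and MCM2 at 11.0 ± 0.153 against 10.5 ± 0.494. Neighbours in this order lay apart by more than their SDs in each group. The lengths are the deposited gene lengths, which for MCM5 and MCM4 are long (7268 and 6973 bases against 4715 for MCM2), and a different transcript length would change the order.

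**Figure D2:**
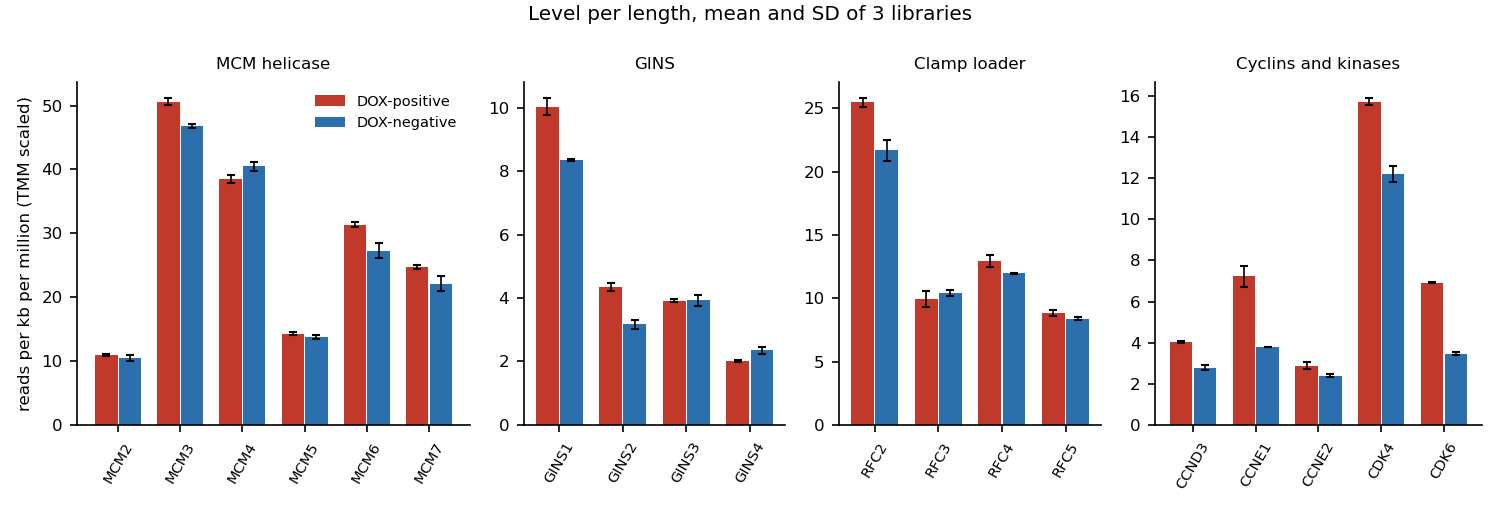
Level per length (y axis, CPM per kilobase of deposited gene length, TMM-scaled) of the MCM ring, GINS, clamp loader and G1/S genes in DOX-positive (red) and DOX-negative (blue) cells, as the mean and SD of 3 libraries, with a separate y axis per panel that starts at 0. MCM3 is highest in the ring in both groups, and among all genes drawn the fold change between groups is largest for CDK6 and CCNE1.

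Genes that switch the helicase on split in both directions. GINS2, a subunit of the GINS complex, read 14.1, 14.3 and 13.6 CPM in DOX-positive cells against 10.1, 10.7 and 9.81 CPM in DOX-negative cells, 1.37-fold higher with no overlap (log2 fold change 0.45, SE 0.06, edgeR adjusted p = 3.17e-06, and 0.31 with library size). GINS1, another subunit, read 40.8, 40.7 and 42.7 CPM against 34.4, 34.5 and 34.7 CPM (log2 fold change 0.26, SE 0.03). GINS4 went the other way, at 10.9, 11.1 and 10.7 CPM in DOX-positive cells against 13.3, 13.0 and 12.1 CPM in DOX-negative cells (log2 fold change -0.23, SE 0.06, edgeR adjusted p = 0.00213). GINS3 averaged 19.97 ± 0.254 CPM in DOX-positive cells and 20.02 ± 0.827 CPM in DOX-negative cells (SD, n = 3 each), and was lower with library size (-0.15). The 4 genes encode 1 protein complex, and their transcripts were called in both directions.

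CDC45, the third part of the active helicase, was higher with TMM (0.16) and not called with library size (0.01, edgeR adjusted p = 0.846). Its call was also lost with upper-quartile scaling. MCM10, which helps to start the fork, fell, to 38.3 ± 0.519 CPM in DOX-positive cells against 41.6 ± 1.01 CPM in DOX-negative cells (log2 fold change -0.12, SE 0.03). That call was lost without DOX-positive replicate 1, DOX-negative replicate 1 or DOX-negative replicate 3, and with DESeq2 size factors.

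The clamp PCNA, which holds polymerases on DNA, was called with library size and in no other alternative. It averaged 107 ± 3.28 CPM in DOX-positive cells and 102 ± 4.14 CPM in DOX-negative cells, with overlapping groups, a TMM estimate of 0.06 (SE 0.04, edgeR adjusted p = 0.174) and a library-size estimate of -0.08 (edgeR adjusted p = 0.0446). Among the small subunits of its loader, RFC2 read 57.2, 55.7 and 56.2 CPM in DOX-positive cells against 49.2, 48.8 and 45.8 CPM in DOX-negative cells and rose (log2 fold change 0.23, SE 0.03). RFC4 read 37.2, 39.0 and 40.0 CPM against 35.80, 35.90 and 35.999 CPM, a call with TMM (0.11) that library size did not give (-0.03). The RFC4 call was also lost with upper-quartile scaling and without DOX-positive replicate 3. RFC5 (0.07) was not called under either scaling but was called higher without DOX-positive replicate 1, and RFC3 was lower with library size (-0.21) and with upper-quartile scaling.

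Polymerase alpha, which makes the first DNA on each primer, was the clearest fall. Its catalytic subunit gene POLA1 (chromosome X, 24693919 to 24996986, plus strand, GRCh38) read 19.3, 19.7 and 20.3 CPM in DOX-positive cells against 27.2, 27.0 and 29.5 CPM in DOX-negative cells. Every DOX-positive library lay below every DOX-negative one, a 1.41-fold reduction (log2 fold change -0.50, SE 0.04, edgeR adjusted p = 5.51e-08, and -0.64 with library size). The accessory subunit gene POLA2 was the least expressed of the set, at 2.83, 2.73 and 2.75 CPM against 3.471, 3.503 and 2.699 CPM. It was not called with TMM (-0.23, SE 0.12) and was lower with library size (-0.37, edgeR adjusted p = 0.0185). With TMM it was called lower without DOX-negative replicate 3, the lowest of all 6 libraries on that scale.

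The 2 primase genes, whose proteins form 1 complex with polymerase alpha, went the opposite way. PRIM1, the catalytic primase subunit, read 25.3, 25.9 and 28.3 CPM in DOX-positive cells against 21.9, 20.4 and 21.8 CPM in DOX-negative cells (log2 fold change 0.31, SE 0.05, edgeR adjusted p = 3.36e-05, and 0.17 with library size). PRIM2, the large subunit, was higher with TMM (0.22) and not called with library size (0.08). Among the replicative polymerases, POLD1, the catalytic subunit of the lagging strand polymerase delta, was not called with TMM (-0.04) and was lower with library size (-0.18). POLE, the catalytic subunit of the leading strand polymerase epsilon, had a TMM call of 0.09 that was lost with library size, with upper-quartile scaling, with at least 1 CPM in 3 libraries and without any 1 of DOX-positive replicates 1, 2 and 3 or DOX-negative replicate 3. POLE2, its second subunit, fell by 0.10 on the log2 scale with TMM and by 0.24 with library size. The TMM call of POLE2 was lost with DESeq2 size factors, without a filter, and without any library except DOX-negative replicate 1.

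In nucleotide supply, RRM1, the large subunit of ribonucleotide reductase, which makes deoxyribonucleotides, read 121, 119 and 123 CPM in DOX-positive cells against 91.4, 84.9 and 89.0 CPM in DOX-negative cells. The groups were far apart (1.37-fold, log2 fold change 0.45, SE 0.03, edgeR adjusted p = 9.42e-09, and 0.31 with library size). RRM2, the S-phase subunit of the same enzyme, read 212, 216 and 213 CPM against 193, 182 and 192 CPM. Its call was made with TMM (0.18, SE 0.03) and not with library size (0.03, edgeR adjusted p = 0.371). TYMS, thymidylate synthase, fell to 18.6 ± 0.771 CPM in DOX-positive cells against 20.8 ± 1.12 CPM in DOX-negative cells (log2 fold change -0.16, SE 0.05), a TMM call lost without DOX-positive replicate 1 or 2 or DOX-negative replicate 1. TK1, thymidine kinase, was not called with TMM (0.02) and was lower with library size (-0.12).

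On the lagging strand, the flap nuclease gene FEN1 and the ligase gene LIG1 act one after the other and moved apart. FEN1 read 72.0, 71.1 and 70.5 CPM in DOX-positive cells against 60.2, 53.6 and 60.4 CPM in DOX-negative cells and rose (log2 fold change 0.30, SE 0.04, edgeR adjusted p = 9.49e-06). LIG1 read 13.9, 13.4 and 12.8 CPM against 16.8, 17.1 and 15.8 CPM and fell (log2 fold change -0.31, SE 0.05, edgeR adjusted p = 9.49e-05). CHAF1B, a subunit of the chromatin assembly factor that places histones behind the fork, fell by 0.08 on the log2 scale with TMM, a call lost with DESeq2 size factors, without a filter and without any library except DOX-negative replicate 2. CHAF1A, its partner, was not called under either scaling (0.04 with TMM and -0.11 with library size) but was called higher without DOX-negative replicate 1. SLBP, which binds the stem-loop of histone mRNA, was higher with TMM (0.14) and had an estimate of 0.00 with library size.

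**Figure D3:**
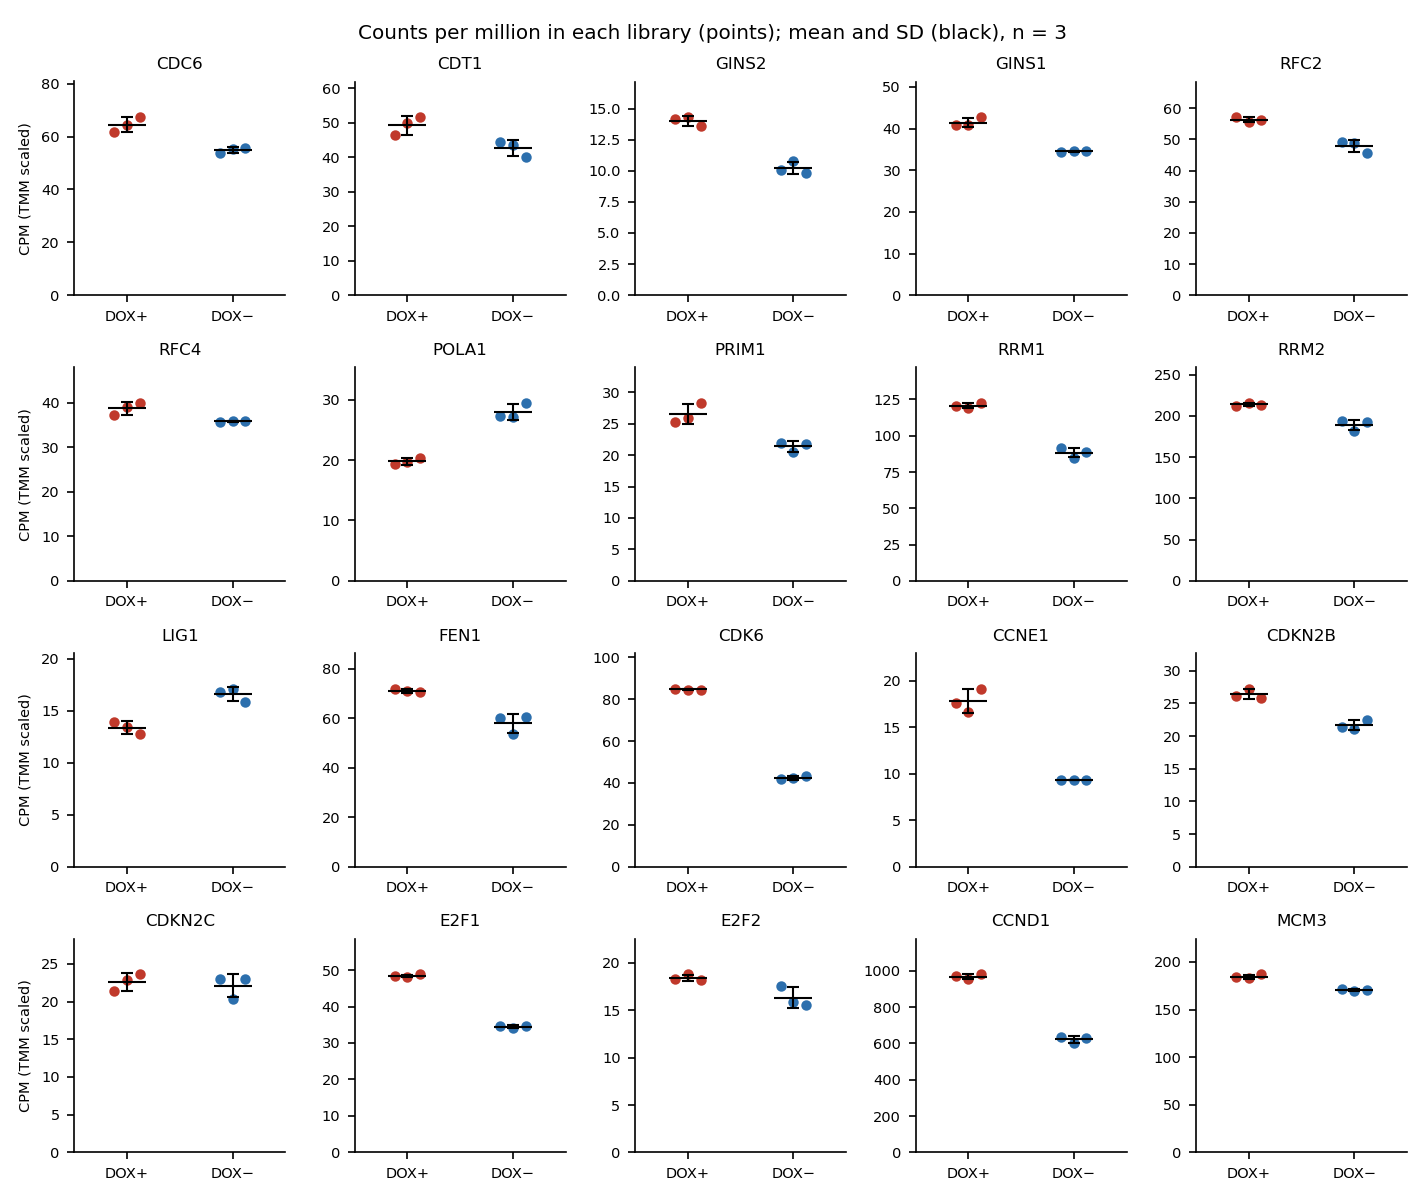
CPM (y axis, TMM-scaled, starting at 0) in each library (points) with mean and SD (black, n = 3) for 20 of the 47 genes, DOX-positive cells (red, DOX+) left of DOX-negative cells (blue, DOX−). The groups lie far apart for CDK6, CCNE1, CCND1, E2F1, RRM1 and POLA1 and overlap for CDKN2C.

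Ratios of 2 genes within a library do not depend on how libraries are scaled, so 12 pairs of partner genes were compared that way. In 9 of 12 pairs the 3 DOX-positive ratios lay clear of the 3 DOX-negative ones. That share was not computed for other pairs of genes, so the count describes these pairs only. For single genes with TMM, 62.4% of all tested genes lay clear, and 79.6% of those at or above the lowest member. With 3 against 3 libraries the exact two-sided permutation test cannot go below p = 0.10, the value that all 9 pairs reached, and p = 0.133 after Benjamini-Hochberg adjustment over the 12 pairs. On reads per kilobase, CCNE1 over CCNE2 was 2.39, 2.51 and 2.60 in DOX-positive cells against 1.54, 1.64 and 1.59 in DOX-negative cells, a difference of 0.65 on the log2 scale. CDK4 over CDK6 was 2.24, 2.29 and 2.29 in DOX-positive cells against 3.58, 3.65 and 3.32 in DOX-negative cells, a difference of -0.63. So by the deposited lengths, 3094 bases for CDK4 and 12260 for CDK6, CDK4 exceeded CDK6 per length in every library, by less in DOX-positive cells. Before division by length, CDK6 had more reads than CDK4 in every library. The order of these genes therefore depends on the lengths used, while the change of the ratio between groups does not.

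E2F1 over E2F8 was 3.24, 3.19 and 3.08 in DOX-positive cells against 2.43, 2.51 and 2.35 in DOX-negative cells, a difference of 0.39. RRM1 over RRM2 was 1.230, 1.194 and 1.243 in DOX-positive cells against 1.023, 1.008 and 1.001 in DOX-negative cells, a difference of 0.27. The 2 reductase subunits were therefore near parity per length in DOX-negative cells by the deposited lengths, with RRM1 ahead in DOX-positive cells. The deposited length of RRM2 is 9155 bases against 5323 exon bases in GENCODE 29, so the level of this ratio depends on the length used while its change between groups does not. POLA1 over POLA2 differed by -0.29 with the libraries apart, but this value was -0.12 without DOX-negative replicate 3. The ratio of CDT1 to CDC6, of PRIM1 to PRIM2 and of CHAF1A to CHAF1B overlapped between groups (exact permutation p = 0.7, 0.3 and 0.2).

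**Figure D4:**
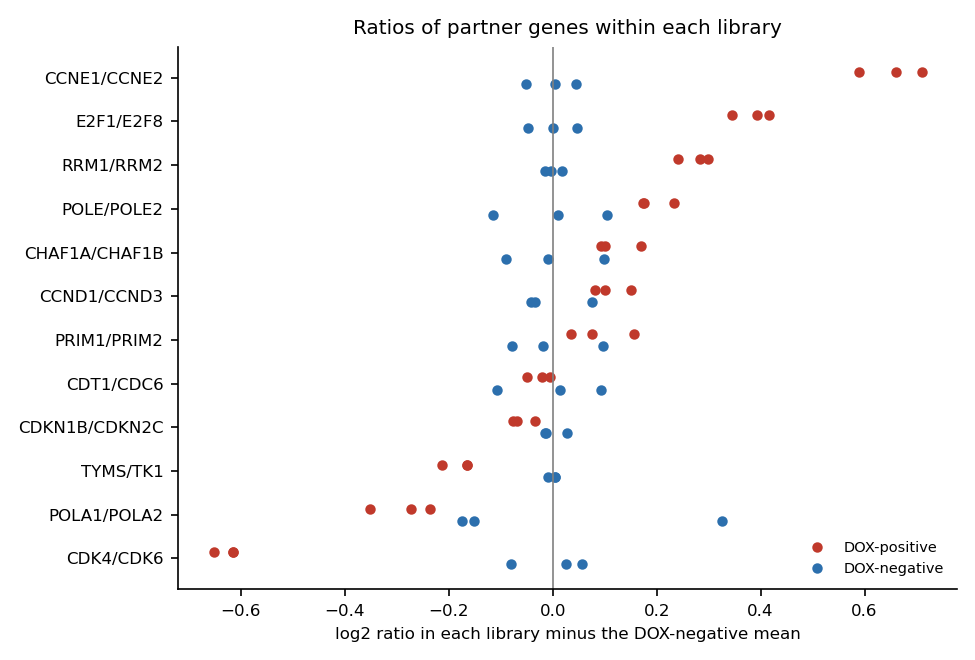
Log2 ratio of reads per kilobase of 2 partner genes in each library, minus the mean of the DOX-negative libraries (x axis), for 12 pairs (y axis), with DOX-positive libraries in red above DOX-negative libraries in blue. CCNE1/CCNE2 and CDK4/CDK6 are furthest from the DOX-negative mean, and CDT1/CDC6 overlaps.

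Beyond the 47 genes, 45 further replication genes, which include origin recognition, fork protection and single-strand binding factors, gave 19 higher and 11 lower with TMM, with a median log2 fold change of 0.08. Library size gave 12 higher and 20 lower, with a median of -0.07. These counts are 42.2% and 24.4% of the list with TMM, and 26.7% and 44.4% with library size. Among genes at or above the lowest of the 47, the shares were 45.5% and 31.4% with TMM, and 30.8% and 45.0% with library size. Over all tested genes they were 27.6% and 28.9%, and 19.0% and 38.8%. The same background stands beside the lists that follow. The count of 11 lower was 7 without DOX-negative replicate 1 or DOX-negative replicate 3. POLE4, a small subunit of polymerase epsilon, rose to 29.7 ± 1.02 CPM in DOX-positive cells against 15.4 ± 1.34 CPM in DOX-negative cells (log2 fold change 0.94, SE 0.05). POLE3, its histone-fold partner, rose by 0.43 on the log2 scale, RPA3, the smallest subunit of the single-strand binding complex, by 0.58, and ORC3, an origin recognition subunit, by 0.63. The largest fall in that list was ATAD5, which unloads PCNA, with a log2 fold change of -0.60.

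Of 27 further G1/S regulators, 9 were higher and 7 lower with TMM (33.3% and 25.9%, median 0.04), and 6 and 14 with library size (22.2% and 51.9%, median -0.10). CDKN1A, which encodes the CDK inhibitor p21, read 192, 188 and 194 CPM in DOX-positive cells against 67.3, 66.9 and 67.9 CPM in DOX-negative cells. At 2.84-fold (log2 fold change 1.51, SE 0.03, edgeR adjusted p = 1.64e-15) this rise was larger than that of any of the 47 genes. RBL1, which encodes the retinoblastoma-related protein p107, fell to 34.8 ± 0.301 CPM in DOX-positive cells against 65.1 ± 5.61 CPM in DOX-negative cells (log2 fold change -0.90, SE 0.05). CDC25A, a phosphatase that activates CDK2, rose by 0.71, and MYBL2, a cell cycle transcription factor, by 0.43.

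Of 41 mitosis and G2/M genes, 12 were higher and 11 lower with TMM (29.3% and 26.8%, median 0.01), and 3 higher and 23 lower with library size (7.32% and 56.1%, median -0.14). CDC25B, a phosphatase of mitotic entry, fell by 0.62, TOP2A, topoisomerase II alpha, by 0.36, and CENPF, a kinetochore protein, by 0.31, while BIRC5, which encodes survivin, rose by 0.39. No test compared the medians of these lists with that of the 47 genes. In RNA from whole cultures, a change in the share of cells in a cycle phase and a change in RNA per cell cannot be told apart.

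**Figure D5:**
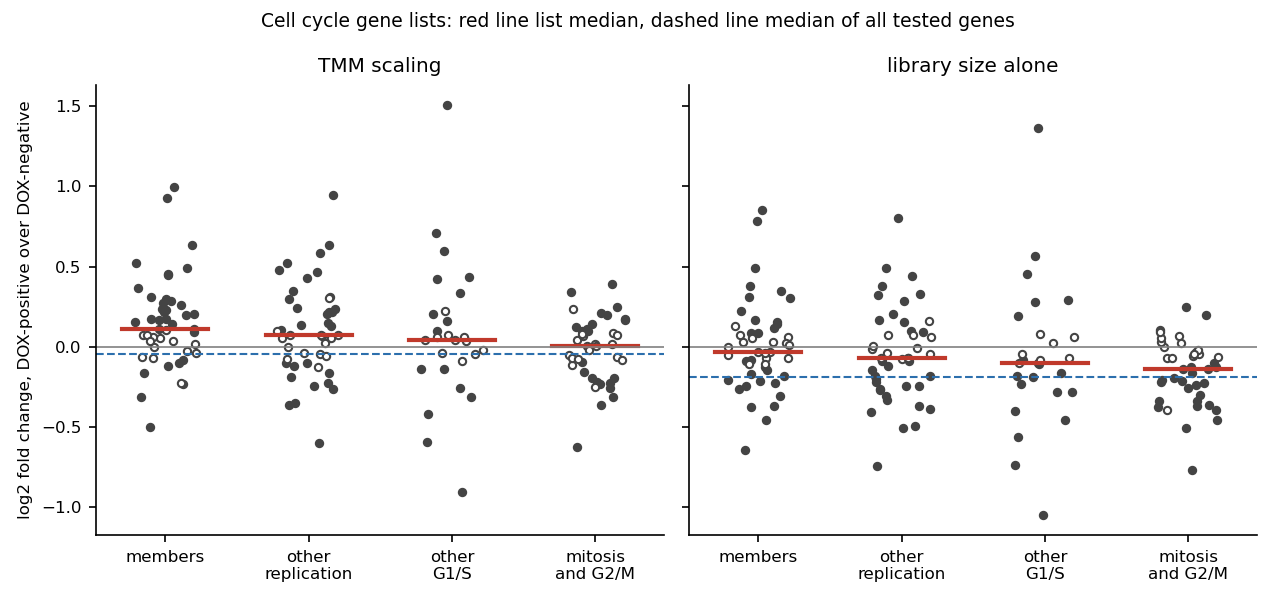
Log2 fold change (y axis, DOX-positive over DOX-negative) of each gene in the 47-gene set and 3 further cell cycle lists, with TMM scaling on the left and library size alone on the right. Filled points passed an adjusted p of 0.05, red lines are list medians and the dashed line is the median of all tested genes, which lies below the median of the set in both panels.

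Reads of some of these genes can be shared with overlapping genes. By GENCODE 29, other genes cover 43.2% of the exon bases of CDK4 (TSPAN31, opposite strand), 39.1% of TYMS (ENOSF1, opposite strand), 37.0% of CCNE2 (INTS8, opposite strand) and 35.1% of POLA2 (a gene on the same strand). The libraries were stranded, but the strand setting of the counting is not given in the sources used here, so the values of these 4 genes are uncertain. The same limit holds to a lesser extent for genes with smaller overlaps. Among them are MCM2 (22.7%), GINS4 (21.2%) and CCND1 (10.3%) on the opposite strand, and RRM2 (20.2%) and PRIM1 (14.9%) on the same strand. CDK6 shares 0.661% of its exon bases, and CCNE1, E2F1 and POLA1 share none.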

How the data were processed

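Polyadenylated, strand-specific libraries (TruSeq Stranded mRNA, per the labels' protocols) from 6 DU-145 cultures were grouped by sample title. The authors deposited whole-number counts per gene, not normalized, and a gene length. The deposited length, an "other" unit in bases, was used only for levels per length. CASAVA 1.8.2, STAR 2.7.9a, DESeq2 1.24.0 and GRCh38.p7 are named, with no role, per the submitters' processing notes. The sources used here do not give the counter or the annotation.

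Counts were tested with edgeR 4.0.16 (R 4.3.3), group as the only term, after filterByExpr (minimum count 10, minimum total 15), with p-values adjusted by the Benjamini-Hochberg method over 24695 genes and a threshold of 0.05. Fold changes are DOX-positive over DOX-negative, and each SE is the log2 fold change over the square root of F. The fit was run with TMM and with library size alone. A count of 0 allows up to 3 counts, or 0.0199 to 0.0342 CPM per library, for counting error only. All library pairs differed beyond sampling noise (chi-square per degree of freedom 6.40 or more). Alternatives were other scalings and filters, DESeq2 1.42.0, limma-voom (limma 3.58.1), a replicate block and leaving out each library. Figures used matplotlib 3.10.9.

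The members, lists and pairs were chosen with earlier results of these data known. Values in every library are given for the 2 genes of each role with the largest TMM change. CCND1, CCNE2, MCM3, GINS4 and POLA2, the ATAD5 value, the printed promoters and the comparison with genes at or above the lowest member's CPM were chosen after values were seen.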

Additional observations from a re-analysis of the deposited data

How the results depend on the processing

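The TMM counts of 26 higher and 7 lower were 14 and 16 with library size alone, and 4 were lower with DESeq2 size factors. The library-size counts of 14 and 16 were 26 and 7 with TMM, 27 and 4 with DESeq2 size factors, and 9 lower with upper-quartile scaling. The TMM median of 0.11 was -0.0307 with library size, 0.0531 with upper-quartile scaling and 0.0757 with at least 1 CPM in 3 libraries. The library-size median of -0.0307 was 0.113 with TMM, 0.140 with DESeq2 size factors and 0.0531 with upper-quartile scaling. Further replication genes gave 12 higher and 20 lower with library size, further G1/S regulators 14 lower with library size and 11 lower with upper-quartile scaling. Mitosis genes gave 3 higher and 23 lower with library size and 18 lower with upper-quartile scaling. All genes called higher with library size numbered 4689, against 7195 with DESeq2 size factors. Apart from the 1 CPM filter, the scaling is the only change in these alternatives. Leaving out each library in turn gave 3 to 7 members lower with TMM and 7 to 12 further replication genes lower, and no other count or median left its bounds.

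Signs turned with library size for MCM2 (-0.0714), MCM3 (-0.0307), MCM5 (-0.0887), PCNA (-0.0820), RFC4 (-0.0327), RFC5 (-0.0688), POLE (-0.0501), TK1 (-0.125), CHAF1A (-0.106), CDKN2C (-0.108) and E2F8 (-0.0362). They turned with upper-quartile scaling for MCM5 (-0.00490), TK1 (-0.0404), CHAF1A (-0.0223) and CDKN2C (-0.0245), with at least 1 CPM for TK1 (-0.0178) and CDKN2C (-0.00173), and for GINS3 with DESeq2 size factors (0.0242) and no filter (0.0158). With a library left out, GINS3 ran from -0.0146 to 0.0494, CDKN1B from -0.0737 to 0.0161, POLD1 from -0.0661 to 0.00792, TK1 from -0.00838 to 0.0915, CHAF1A from -0.0116 to 0.122 and CDKN2C from -0.0264 to 0.0860. With all libraries none of these 6 was called with TMM, and CHAF1A was called higher without DOX-negative replicate 1. A cause beyond the scaling or the library left out was not tested.

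With the replicate number as a block, 26 members were higher and 7 lower with TMM, and 14 higher and 15 lower with library size. Same-numbered libraries did not deviate together (correlations -0.163, -0.0360 and 0.0130 for numbers 1, 2 and 3). No library correlated best with the library of its own number, so the numbers are not taken as pairs. POLA2 had the fewest reads of the 47 genes, 272 to 394 per library in DOX-positive cells and 247 to 514 in DOX-negative cells.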
